A study of Mus musculus with 9 samples.

Results

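Nonsense-mediated decay is the pathway that degrades messenger RNAs carrying a premature stop codon. The genes described here are 9 factors of that pathway, Upf1, Upf2, Upf3a, Upf3b, Smg1, Smg5, Smg6, Smg8 and Smg9. They were chosen by symbol because the mouse model carries a premature stop codon, and the question was whether the decay machinery differs with genotype or treatment. All 9 were found among the 15779 genes of the deposited tables. The material was polyA RNA from hearts of adult C57BL/6J mice, sequenced as 3 groups with 3 libraries each, 9 in total. Wild-type mice were given saline. Saline mutants were homozygous for the R946X stop codon in Mybpc3 (Mybpc3R946X/R946X). Treated mutants had the same genotype and were given high-dose exABE8e, and series text describes SpRY-based adenine base editors delivered by AAV9 and expressed in cardiomyocytes. No group of wild-type mice given the editor, and no group of mutants given virus without it, is among these 9 libraries, and the labels give no age beyond adult.

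When a ribosome stops well upstream of an exon-exon junction, the exon junction complex left on the RNA downstream marks that stop as premature. The helicase UPF1 binds the terminating ribosome, UPF2 and the UPF3 proteins bridge it to the junction complex, and the kinase SMG1 phosphorylates UPF1. SMG8 and SMG9 are subunits that hold SMG1 in check. Phosphorylated UPF1 then recruits SMG6, an endonuclease that cuts the RNA near the stop, or SMG5, which hands the RNA to deadenylation and decapping. Transcripts of several of these factors are themselves reported substrates of the pathway.

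The codon named by the label lies on GRCm38, chromosome 2, from 91132942 to 91132944, in exon 27 of 35 of the transcript ENSMUST00000111430.9, whose reading frame has 1277 codons. It is coding sequence, 76 bases before the next exon-exon junction. After it there are 8 junctions, and the last of them is 1023 bases downstream. The reference sequence is shown because this arginine codon is the one the label gives as a stop; it is on the plus strand at chr2:91132921-91132965, with the arginine codon in capitals.
Mybpc3 R946X site: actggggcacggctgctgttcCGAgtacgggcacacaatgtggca

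Mybpc3, which encodes cardiac myosin-binding protein C of the sarcomere, was read first because it checks the labels. Its values were 1510, 1795 and 2039 for wild type, 133, 142 and 186 for saline mutant and 1024, 1374 and 1332 for treated. The 3 groups did not overlap. Relative to the mean of wild type, the saline mutant level was 8.63% ± 1.59 (SD, n = 3) and the treated level 69.8% ± 10.7 (SD, n = 3). The log2 difference was -3.53 between saline mutant and wild type (limma adjusted p 2.66e-05) and 3.01 between treated and saline mutant (limma adjusted p 0.000253). The values are whole numbers scaled so that all libraries have nearly the same total, and depth is therefore unknown. In bulk tissue, fewer cells of a type and less RNA per cell cannot be told apart.

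Library totals ranged from 999152 to 999382, and mitochondrial transcripts took 17.0% to 24.1% of them. Cardiomyocyte markers were abundant in every library, with a sum over Myh6, Actc1, Tnnt2, Tnni3 and Ryr2 of 34820 to 45706. Long transcripts were low in a pair of libraries. The median deviation of the longest 10% of genes minus that of the shortest 10% was -0.48 on the log2 scale in wild type replicate 1 and -0.30 in treated replicate 1, and between -0.05 and 0.32 in the other 7. Those libraries also carried Xist, at 119 and 39, as did saline mutant replicate 3 at 351, while the other 6 had Xist at 0. Treated replicate 1 had both Xist and Y-linked transcripts (summed value 95, against 160 to 188 in the 6 libraries without Xist and 0 in the other Xist libraries). Across all genes, limma called 7.7% of 13632 genes in saline mutants against wild type, 0.0147% of 13636 in treated against saline mutants and 0.989% of 13554 in treated mutants against wild type. These counts, 1050, 2 and 134 genes, depended on which libraries were kept, and leaving 1 out also leaves fewer libraries in the fit. The first was 609, 761 and 640 without wild type replicates 1, 2 and 3. It was 506 and 688 without saline mutant replicates 2 and 3. The second was 7, 4 and 8 without saline mutant replicate 1, treated replicate 1 and treated replicate 3. The third fell to 1 when wild type replicate 1 was left out, to 3 when replicate 2 of that group was, and to 12 when replicate 3 was. It was 24 with treated replicate 1 left out and 22 with treated replicate 2 left out.

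All 9 decay factors were detected in every library, and 0 of the 9 were called in each of the 3 comparisons, in which 7.7%, 0.0147% and 0.989% of all genes were called. Their summed value was 251, 317 and 309 for wild type, 321, 336 and 371 for saline mutant and 293, 371 and 327 for treated. The wild-type and saline mutant sums did not overlap. Smg1 alone made up 67.5% of the difference between their means, and without it the sums, 198 to 237 and 222 to 253, overlapped. By mean over the 9 libraries the order of levels was Smg1 (91.6), Smg5 (66.8), Upf1 (57.0), Smg6 (32.8), Upf2 (25.7), Upf3a (18.1), Smg8 (12.3), Upf3b (9.44) and Smg9 (8.11). This order compares genes on the assumption that the deposited values are scaled for transcript length, which no header states. Most steps of this order held in nearly every library: Smg5 lay above Upf1, Upf1 above Smg6, Upf2 above Upf3a and Upf3a above Smg8 in 9 of 9. Smg1 lay above Smg5, and Smg8 above Upf3b, in 8 of 9. Smg6 lay above Upf2 in 8 with 1 tie. Upf3b and Smg9 were the least separated, with Upf3b higher in 6 libraries, tied in 2 and lower in 1. Across libraries the range of each gene overlapped that of the next one down, except for Upf1 over Smg6 and Upf3a over Smg8.

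**Figure D1:**
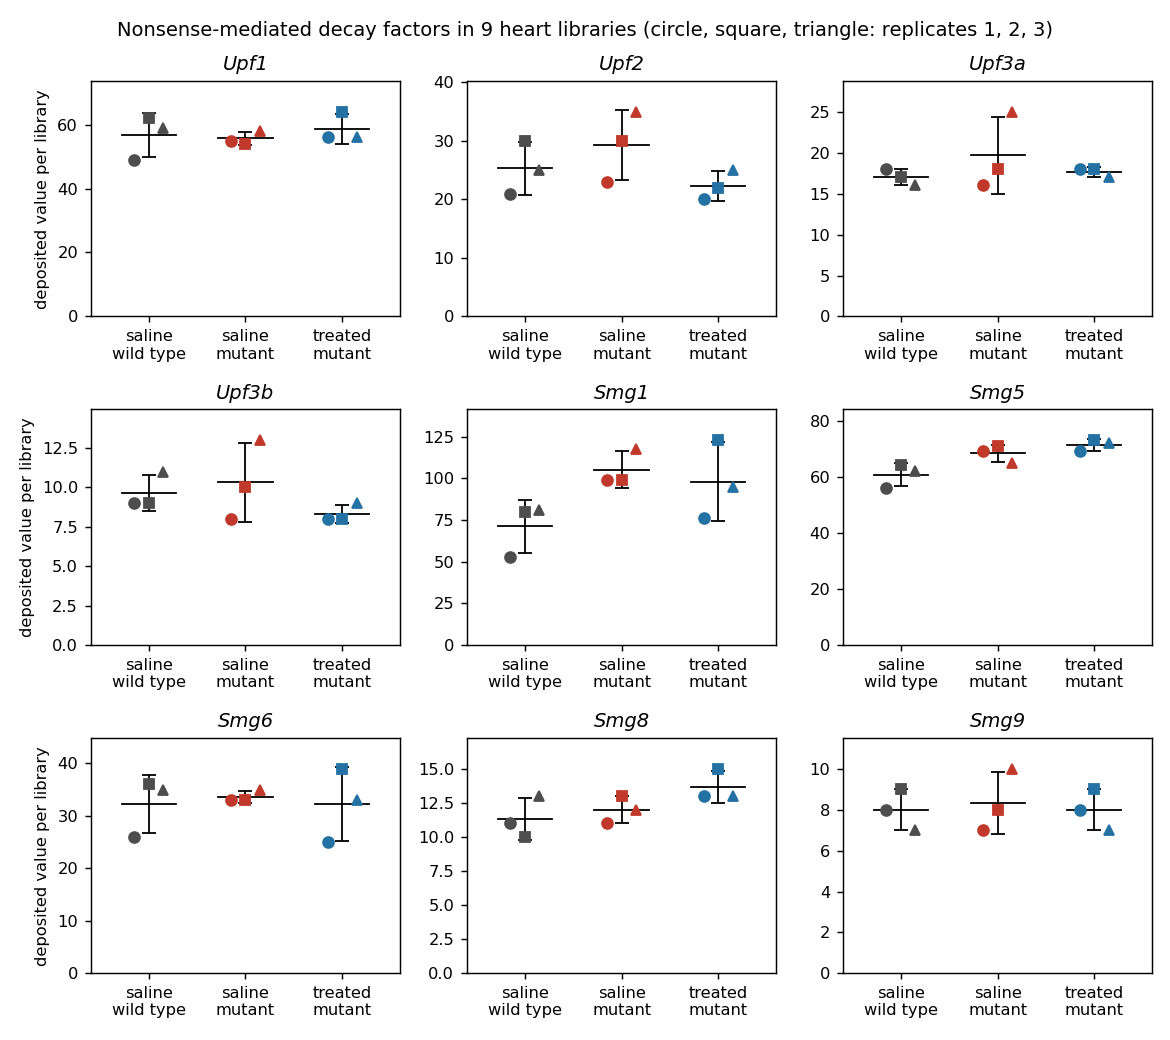
Deposited value (vertical axis, from 0, no unit stated) of each decay factor in each library, by group; points are libraries, the black line is the group mean and the bar is ± 1 SD (n = 3). Smg1 lies at 53 to 81 in wild type and at 99 to 118 in saline mutants, while most other factors overlap between the groups.

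Among the core UPF factors, the coefficient of variation over the 9 libraries was 7.80% for Upf1, the lowest of the 9 factors. It was 19.5% for Upf2, 15.0% for Upf3a and 17.6% for Upf3b. Upf2, Upf3a and Upf3b also had lower means than Upf1 (25.7, 18.1 and 9.44 against 57.0), where rounding to whole numbers weighs more. Upf1, on chromosome 8 from 70331525 to 70353278, was 49, 62 and 59 for wild type, 55, 54 and 58 for saline mutant and 56, 64 and 56 for treated. All saline mutant values lay inside the wild-type range. On the log2(value + 1) scale, saline mutants differed from wild type by -0.02 (SE 0.117, limma adjusted p 0.987). Its 95% interval ran from 0.821-fold to 1.19-fold, so a change of the size seen in Mybpc3 lay far outside it. With treatment the difference from saline mutants was 0.07, with an interval from 0.888-fold to 1.25-fold.

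Upf2 bridges UPF1 and UPF3, and its gene lies on chromosome 2, as Mybpc3 does, from 5951469 to 6056703. Its values were 21, 30 and 25 for wild type, 23, 30 and 35 for saline mutant and 20, 22 and 25 for treated. The lowest saline mutant value lay within the treated range, so the groups overlapped. Treated mutants were lower than saline mutants by a log2 difference of -0.36 (SE 0.171, limma adjusted p 0.627), the largest difference of any of the 9 factors with treatment. The interval, from 0.593-fold to 1.02-fold, included no change. Without the libraries carrying Xist this difference was -0.16, and without saline mutant replicate 3 it was -0.23. Against wild type, the saline mutants differed by 0.20 and the treated mutants by -0.17, with adjusted p-values of 0.623 and 0.734 from limma.

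Upf3a and Upf3b are paralogs that tether the UPF proteins to the junction complex, and UPF3B is the stronger activator of decay. In these hearts Upf3a had the higher value of the pair in all 9 libraries. Upf3a, on chromosome 8 from 13785615 to 13799193, was 18, 17 and 16 for wild type, 16, 18 and 25 for saline mutant and 18, 18 and 17 for treated. One library, saline mutant replicate 3, stood above the rest. Upf3b is on the X chromosome, from 37091678 to 37110322, and was 9, 9 and 11 for wild type, 8, 10 and 13 for saline mutant and 8, 8 and 9 for treated. Its values in the 3 libraries with Xist were 9, 13 and 8, against 8 to 11 in the others. The saline mutant difference from wild type was 0.18 (adjusted p 0.644) for Upf3a and 0.07 (adjusted p 0.893) for Upf3b, both by limma. For Upf3b the sign changed under upper-quartile scaling (-0.02), without the Xist libraries (-0.14) and without saline mutant replicate 3 (-0.09). Without that last library the Upf3a difference was -0.00074. With treatment the differences from saline mutants were -0.12 and -0.26, and neither was called. At values near 10, one unit of rounding is a visible step, and the intervals for Upf3b were correspondingly wide, from 0.78-fold to 1.41-fold in saline mutants against wild type.

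Smg1, the kinase that phosphorylates UPF1, showed the largest difference of the 9. Its gene is on chromosome 7, from 118131308 to 118243670, and its transcript is the longest of the group at 15557 bases, with 63 exons. Values were 53, 80 and 81 for wild type, 99, 99 and 118 for saline mutant and 76, 123 and 95 for treated. Every saline mutant library lay above every wild-type library, and the treated libraries spanned both groups. Between saline mutants and wild type, 21.6% of all genes were without overlap. Relative to the mean of wild type, the saline mutant level was 148% ± 15.4 (SD, n = 3) and the treated level 137% ± 33.1 (SD, n = 3). The log2 difference between saline mutant and wild type was 0.58 (SE 0.171, unadjusted p 0.00862), or 1.49-fold with an interval from 1.14-fold to 1.95-fold. With Benjamini-Hochberg adjustment over all genes the limma p was 0.0864, which missed the threshold, and ranked 1360th of 13632 genes. In the authors' deposited table the log2 fold change was 0.49 with an unadjusted p of 0.0314, and Smg1 was not among the 689 genes the authors selected. The rule of that selection is not stated here. Mybpc3 was not selected in treated mutants against wild type either, at the authors' log2 fold change of -0.54 and unadjusted p of 0.000801.

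Wild type replicate 1, in which long transcripts were low, held the lowest Smg1 value, and Ttn, which encodes the giant sarcomere protein titin, was also lowest there (2873, against 4063 to 5583 in the other 8). Without that library the Smg1 difference fell to 0.38 (adjusted p 0.14). Without the Xist libraries it was 0.30 (adjusted p 0.174). When the trend with transcript length was removed from each library, an alternative added after the data had been seen, the difference was smaller, at 0.35, and it was called (limma adjusted p 0.0384). With the replicate number as a block it was also called, at an adjusted p of 0.0488, although the numbers did not pair these libraries. The direction was the same in all 20 alternatives. With no overlap between saline mutants and wild type, leaving out libraries or altering the variance step could not change it. Fibroblast markers (Dcn, Lum, Pdgfra, Col1a1 and Dpt) were also higher in saline mutants, with a summed value of 1618 to 2459 against 1094 to 1503 in wild type. In treated mutants their sum was 1237 to 1532, while Smg1 was 76, 123 and 95. None of these markers was at 0, and their part in the Smg1 difference was not tested. Erythroid markers (Hba-a1, Hbb-bs and Alas2) were lower in saline mutants, with sums of 60 to 77. Their sums were 91 to 274 in wild type and 125 to 139 in treated mutants, and their part was not tested either. Treated mutants did not differ from saline mutants in Smg1 beyond the spread (-0.13, interval from 0.697-fold to 1.21-fold, limma adjusted p 0.874), and without treated replicate 1 the sign was positive, at 0.04. Against wild type they were higher by 0.45, with an interval from 0.957-fold to 1.95-fold.

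**Figure D2:**
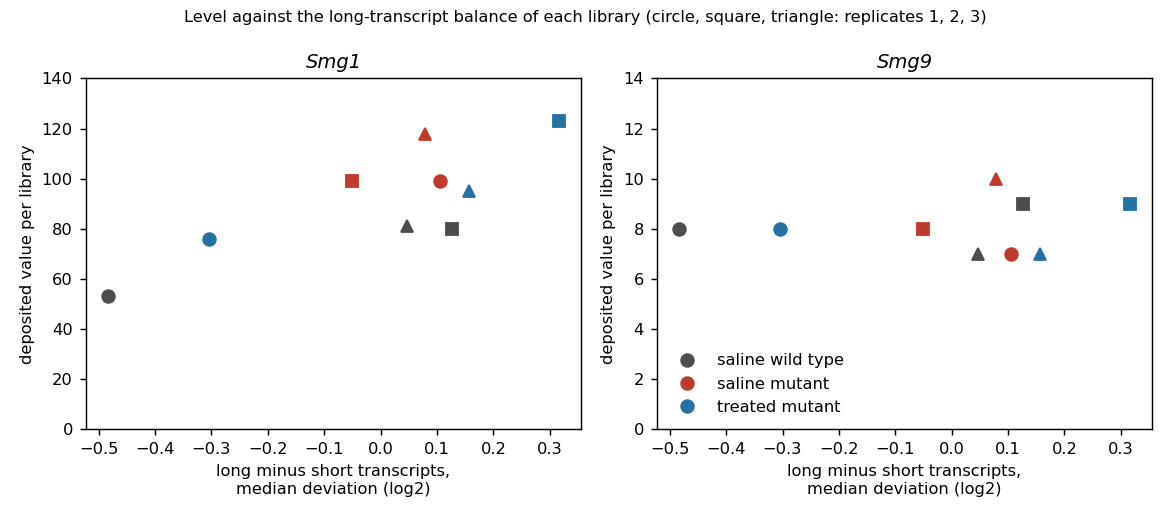
Deposited value of Smg1 (left) and Smg9 (right) in each library against the library's long-transcript balance, the median log2 deviation of the longest 10% of genes minus that of the shortest 10%. The pair of libraries at the far left, wild type replicate 1 (-0.48) and treated replicate 1 (-0.30), hold the lowest Smg1 values, 53 and 76, and Smg9 at 8 in both.

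The same libraries stood low for the other long factors. Of the 5 factors with transcripts of 4448 to 15557 bases (Upf1, Upf2, Smg1, Smg5 and Smg6), all 5 had their lowest wild-type value in replicate 1, and 4 had their lowest treated value in replicate 1, with Upf1 tied. Of the 4 with transcripts of 2057 to 3218 bases (Upf3a, Upf3b, Smg8 and Smg9), 0 had their single lowest value in either library. With ties, 2 of them (Upf3b and Smg8) were lowest in treated replicate 1, and Upf3b was tied in wild type replicate 1.

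Smg8 and Smg9 encode the subunits that restrain SMG1. Smg8, on chromosome 11 from 87077732 to 87086774, was 11, 10 and 13 for wild type, 11, 13 and 12 for saline mutant and 13, 15 and 13 for treated. Treated values reached the top of the wild-type range or above it, by a log2 difference of 0.25 (SE 0.135, limma adjusted p 0.502) and an interval from 0.959-fold to 1.48-fold. Smg9, on chromosome 7 from 24399619 to 24422778, was 8, 9 and 7 for wild type, 7, 8 and 10 for saline mutant and 8, 9 and 7 for treated. It was the least abundant of the 9, the wild-type and treated means were both 8.0, and the interval for that pair ran from 0.788-fold to 1.27-fold. Saline mutants differed from wild type by 0.08 in Smg8 and 0.05 in Smg9, where Smg1 differed by 0.58; whether these differ from each other was not tested. The sign of both was negative under upper-quartile scaling (-0.01 and -0.04).

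Smg5 and Smg6 act on phosphorylated UPF1, the first through recruitment of decay enzymes and the second by cutting. Smg5, on chromosome 3 from 88336260 to 88362338, was 56, 64 and 62 for wild type, 69, 71 and 65 for saline mutant and 69, 73 and 72 for treated. All 6 mutant libraries lay above all 3 wild-type libraries, by a narrow margin. Of all genes, 21.6% were without overlap in saline mutants against wild type and 14.6% in treated mutants against wild type. Smg5 differed from wild type by 0.17 in saline mutants (SE 0.101, limma adjusted p 0.408) and 0.23 in treated mutants (SE 0.0956, limma adjusted p 0.377), or 1.17-fold with an interval from 1.01-fold to 1.37-fold for the latter. These 2 differences share the wild-type libraries. Both were positive in all 20 alternatives of their comparison, with ranges from 0.08 to 0.21 and from 0.15 to 0.27, and neither was called in any. Because the groups did not overlap, leaving out libraries or altering the variance step could not change these signs. Treated and saline mutants differed by 0.06, with an interval from 0.893-fold to 1.22-fold. Smg6, on chromosome 11 from 74925823 to 75164448, was 26, 36 and 35 for wild type, 33, 33 and 35 for saline mutant and 25, 39 and 33 for treated. The groups overlapped throughout, and the saline mutant difference of 0.07 turned to -0.04 once the length trend was removed.

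Set side by side, the 9 factors gave 0 calls in saline mutants against wild type, where 7.7% of all genes were called. At an unadjusted p under 0.05 there was 1, Smg1, and 19.7% of all genes passed that limit. The groups did not overlap for 2 of the 9, Smg1 and Smg5, which is close to the 21.6% of all genes. The median difference of the 9 was 0.08, beside 0.07 over all genes tested. As deposited 8 of the 9 were positive (59.1% of all genes), 7 under median-of-ratios scaling and 4 under upper-quartile scaling. In treated against saline mutants 0 of 9 were called (0.0147% of all genes), 0 passed an unadjusted 0.05 (8.29% of all genes) and 0 were without overlap (9.82%). Their median was -0.08 beside -0.02 over all genes. In treated mutants against wild type 0 of 9 were called (0.989% of all genes), 1, Smg5, had an unadjusted p under 0.05 (12.5% of all genes) and 1, again Smg5, was without overlap (14.6%). Here the medians were 0.05 and 0.01. limma without the floor on the variance also called 0 of the 9 in each comparison. Leaving out Smg1, the intervals for saline mutants against wild type lay between 0.78-fold and 1.53-fold.

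**Figure D3:**
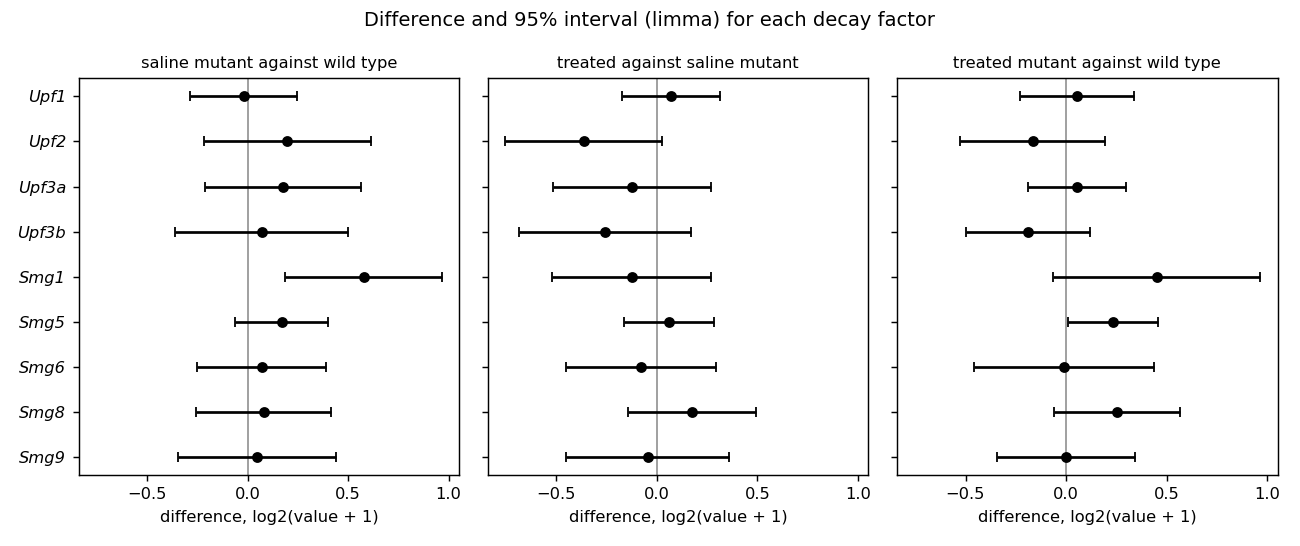
Difference in log2(value + 1) between groups (points) with its 95% interval from limma (bars) for each decay factor, in the 3 comparisons; the grey line marks no difference. The intervals of Smg1 in saline mutants against wild type (0.19 to 0.97) and of Smg5 in treated mutants against wild type (0.01 to 0.45) lie above 0, and neither passed adjustment over all genes.

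In the Ensembl-GENCODE annotation, 3 of the 9 genes (Smg1, Smg5 and Smg6) have 1 transcript each that is annotated as a nonsense-mediated decay substrate, and 20.9% of 21924 coding genes have at least 1. The tables hold 1 value per gene, so such transcripts could not be separated from the coding ones.

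The genes whose profile over the 9 libraries lay closest to Upf1 were Smad4, Tada2b and Ppp2r5e, with root-mean-square differences of 0.03, 0.04 and 0.04 on the log2 scale after centring, among 8786 genes. For Smg1, Naa25 and Mycbp2 were among the 3 closest, both at 0.08. Mycbp2, whose transcript is 15233 bases long, was 39, 67 and 61 for wild type, 69, 70 and 85 for saline mutant and 54, 85 and 74 for treated. The low wild type replicate 1 and treated replicate 1 appeared in this gene as they did in Smg1.

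The pathway around the 9 factors was read in 34 further genes. In saline mutants against wild type 0 of 34 were called (7.7% of all genes), 2 (Etf1 and Pnrc2) had an unadjusted p under 0.05 (19.7% of all genes), and their median difference was 0.07, the same as over all genes. The 6 genes of the exon junction complex and its partners, among them Eif4a3, Magoh, Rbm8a and Rnps1, gave 0 calls and a median of 0.08. The 12 genes of decapping, deadenylation and exonuclease decay, which include Dcp2, Ddx6, Xrn1 and Cnot1, gave 0 calls and a median of 0.07. The 8 accessory factors gave 0 calls and a median of 0.04.

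The 8 genes of translation termination and of cap and tail binding gave 0 calls and a median of 0.19. Etf1 encodes the release factor eRF1, which recognises stop codons in the ribosome. It was 139, 147 and 148 for wild type, 176, 177 and 174 for saline mutant and 170, 169 and 166 for treated. All mutant libraries lay above all wild-type libraries, and the values within each group were close together. Groups were without overlap for 3 of the 34 genes in saline mutants against wild type (21.6% of all genes). In treated mutants against wild type it was 2 of the 34 (14.6% of all genes). Against wild type, Etf1 differed by 0.28 in saline mutants (SE 0.0871, limma adjusted p 0.104) and by 0.22 in treated mutants (SE 0.0835, limma adjusted p 0.343), and both differences share the wild-type libraries. Etf1 was called in saline mutants in 1 of 20 alternatives, limma without the floor on the variance (adjusted p 0.0217). Pabpc1, the cytoplasmic poly(A)-binding protein, had the next smallest p of the list in saline mutants, at a difference of 0.27 (adjusted p 0.353), and its groups overlapped.

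Pnrc2, an adaptor between UPF1 and the decapping enzyme, was 86, 81 and 71 for wild type, 89, 98 and 116 for saline mutant and 77, 62 and 87 for treated. Saline mutants lay above both other groups without overlap. Against wild type 21.6% of all genes were without overlap. In treated against saline mutants 2 of the 34 genes were (9.82% of all genes). The Pnrc2 difference was 0.34 against wild type (SE 0.128, limma adjusted p 0.175), and treated were below saline mutants by -0.42 (SE 0.153, limma adjusted p 0.507). Neither was called in any of the 20 alternatives. In treated against saline mutants 0 of the 34 genes were called (0.0147% of all genes), with a median of -0.02 beside -0.02 over all genes, and after Pnrc2 the smallest p-values belonged to Gspt1 (-0.16) and Pabpc1 (-0.21). In treated mutants against wild type 0 of 34 were called (0.989% of all genes), with a median of 0.06. Besides Etf1, the smallest p-values there were those of Eif4e (-0.13) and Dcp1a (0.16).

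**Figure D4:**
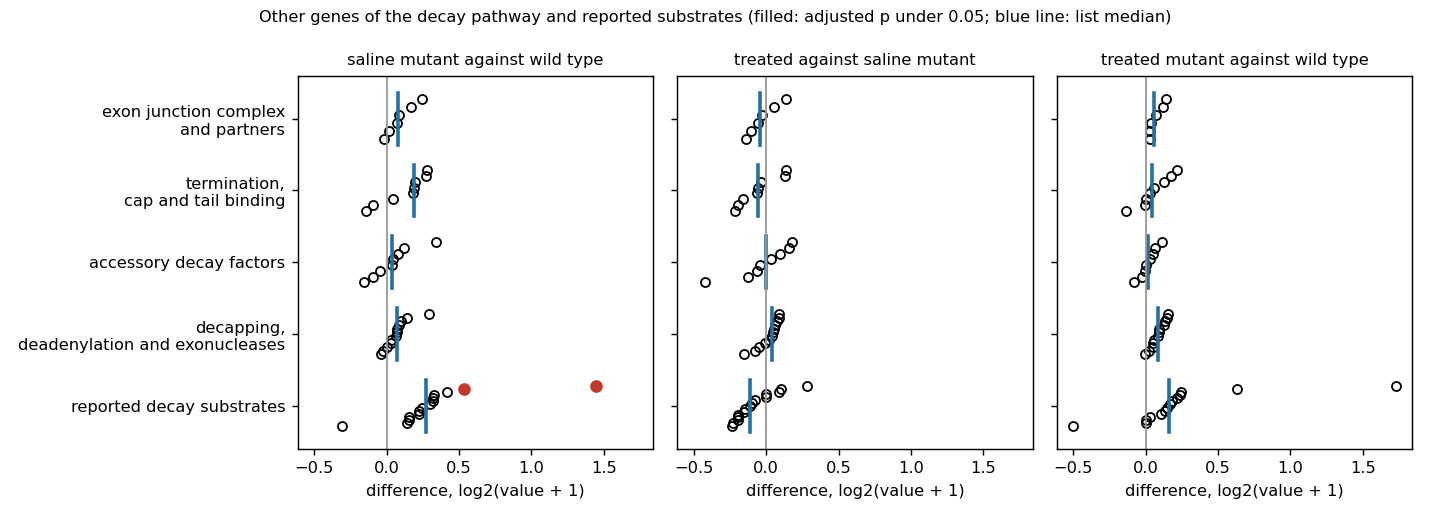
Difference in log2(value + 1) for each gene of the 4 wider pathway lists and of the reported decay substrates, in the 3 comparisons; the blue line is the list median and filled points passed an adjusted p under 0.05. The filled points are Atf4 (0.53) and Atf3 (1.45) in saline mutants against wild type.

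Transcripts reported elsewhere as substrates of the pathway were read as a separate list of 15, of which 14 passed the filter on low values in both comparisons with wild type. Of these, 2 rose in saline mutants, Atf3 and Atf4, where 7.7% of all genes were called. Both encode transcription factors of the stress response. The median over the list was 0.27, beside 0.07 over all genes, and 13 of the 14 were positive, beside 59.1% of all genes. Saline mutant replicate 3 held the highest value of the 9 libraries for Gas5 (30), Tra2a (62) and Zfas1 (10), among others. Atf4 was 63, 64 and 50 for wild type, 84, 81 and 91 for saline mutant and 118, 84 and 77 for treated. It rose by 0.53 in saline mutants (SE 0.123, limma adjusted p 0.0335), and those groups did not overlap, as in 21.6% of all genes. Atf3 was 4, 3 and 3 for wild type, 19, 8 and 8 for saline mutant and 18, 21 and 6 for treated. It rose by 1.45 (SE 0.306, limma adjusted p 0.0231). Both calls depended on the fit and on which libraries were kept, and leaving libraries out also leaves fewer in the fit. With all libraries kept, neither was called by limma without the floor on the variance (adjusted p 0.0926 for Atf3 and 0.0656 for Atf4) or in one fit over the 9 libraries (0.0716 and 0.077), and Atf4 was not called with the replicate block (0.0696). Atf3 was not called without wild type replicate 1, 2 or 3 (adjusted p 0.0764, 0.0556 and 0.0729). Atf4 was not called without wild type replicate 1 or 3 (0.0633 and 0.122) or without saline mutant replicate 1, 2 or 3 (0.0645, 0.0999 and 0.106). Without the libraries carrying Xist neither was called (adjusted p 0.0587 for Atf3 and 0.102 for Atf4).

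The other reported substrates were not called. Srsf3 (0.32), Srsf2 (0.32) and Gas5 (0.41), which encode 2 splicing factors and a small nucleolar RNA host transcript, had adjusted p-values of 0.267, 0.285 and 0.316 in saline mutants. In treated against saline mutants 0 of 15 were called (0.0147% of all genes), 0 had an unadjusted p under 0.05 (8.29% of all genes), and the median was -0.11. The smallest p-values were those of Srsf3 (-0.15), Snhg1 (-0.23) and Gadd45a (-0.20). In treated mutants against wild type 0 of 14 were called (0.989% of all genes) and 3 had an unadjusted p under 0.05 (12.5% of all genes): Atf3 (1.73), Atf4 (0.63) and Gadd45a (-0.50). These 3 were also the ones without overlap between the groups (14.6% of all genes). Atf3 was called there when treated replicate 3 was left out (adjusted p 0.0088). Gadd45a, a growth arrest gene, was 11, 12 and 15 for wild type, 10, 9 and 11 for saline mutant and 7, 9 and 10 for treated.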

How the data were processed

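The values per gene and library, which the authors deposited as whole numbers, were treated as a score: nearly equal library totals (999152 to 999382) fit a rounded, length-scaled abundance, and no header names the unit. HISAT2, HTSeq, DESeq2 and mm10 are named in the submitters' processing notes, without versions or order. The authors' tables also give a mean signal, log2 fold changes and a test score. The authors' column headed as the adjusted p-value equals the unadjusted one, and the other column is that value divided by a constant, with no unit of its own.

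limma (version 3.58.1, under R 4.3.3) was fitted to log2(value + 1) separately for each pair of groups, keeping genes whose mean was at least 1. A fold change on this scale understates changes of low genes. Residual variances were not allowed below the rounding variance (1/12), and the prior's degrees of freedom came from genes averaging at least 30. Genes were called at a Benjamini-Hochberg adjusted p under 0.05. The fitting steps were tested on simulated data in which 200 genes changed by 1 on the log2 scale. In saline mutants against wild type, 8.2% of the calls were false, above the threshold of 0.05. The false share was 5.2% in treated against saline mutants and 5.6% in treated mutants against wild type. Of the changed genes, 94.25%, 89.55% and 95.05% were called in these comparisons.

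Named were the 9 factors, Mybpc3, called genes of the lists, the 3 smallest p-values beyond them and the 3 genes most like Upf1 and Smg1 over the libraries; some results under this rule are not reported here. The 9 factors, the lists and the tests were chosen with earlier results of these data known. Replicates are separate samples per the labels, which do not say that each is a separate mouse; p-values measure the spread between samples. Positions are from GENCODE M21 (GRCm38, the assembly of mm10). The deposited tables give 1 value per gene, and strand use in counting is not given in the sources used here. Of the marker lists, fibroblast and cardiomyocyte sums are given in the text. The sums in wild type, saline mutants and treated mutants were 791 to 1137, 735 to 835 and 744 to 889 (endothelial), 907 to 1077, 777 to 1029 and 766 to 941 (smooth muscle and pericyte), 140 to 185, 157 to 292 and 134 to 195 (macrophage) and 91 to 274, 60 to 77 and 125 to 139 (erythroid). T cell, atrial and skeletal muscle sums were at most 5, but they rest on 1, 1 and 2 of the 3 markers listed for each. The other markers of these lists were not among the deposited genes. Of the 3 adipocyte markers 0 were among them, so no adipocyte sum could be read.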

Additional observations from a re-analysis of the deposited data

How the results depend on the processing

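Of 20 alternatives per comparison, 19 were planned and the removal of the length trend was added after seeing the data. None of them gave a call for a factor except Smg1 in saline mutants against wild type, under the replicate block and with the length trend removed (1 factor called in each). Same-numbered libraries did not deviate together in that comparison (correlations of -0.23, -0.10 and -0.37). The correlations were -0.07, 0.20 and 0.12 in treated against saline mutants. In treated mutants against wild type they were 0.57, 0.15 and 0.03. The value of 0.57 belongs to the replicate 1 libraries, the pair in which long transcripts were low. The replicate numbers were not taken as pairs in the main fit of any comparison. With the replicate block, 819, 30 and 35 genes were called in the 3 comparisons, and Smg1 had an adjusted p of 0.0488 in the first. The cause of the shifts below was not tested. Mybpc3 was called in all 20 alternatives of the first pair of comparisons and in 0 of the last (adjusted p 0.0846 to 0.461). With 1 library left out, called genes ranged from 506 to 1029, from 2 to 8 and from 1 to 133. Without the Xist libraries they were 556, 2 and 9. Treated against saline mutants gave 32 without the variance floor, 14 with the prior from all genes, 7 with a pseudocount of 5, 6 with a filter at 10, 10 with either other scaling, 13 in one fit over 9 libraries and 7 with the length trend removed. Treated mutants against wild type gave 77 without the floor, 243 with the prior from all genes, 86 without a filter, 248 in one fit, 15 with the Y-linked covariate and 211 with the length trend removed. Among the wider genes 1 (Etf1) was called without the floor in saline mutants.

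Small differences changed sign, all of them uncalled. In saline mutants against wild type, median-of-ratios scaling gave -0.019 for Smg9, and scaling without mitochondrial transcripts gave -0.0010 for Smg9. Upper-quartile scaling gave -0.019 for Upf3b, -0.023 for Smg6, -0.0083 for Smg8, and -0.040 for Smg9. Leaving out the Xist libraries gave -0.058 for Upf2, -0.14 for Upf3b, -0.10 for Smg6, and -0.076 for Smg9. Removing the length trend gave -0.039 for Smg6. In treated against saline mutants, leaving out the Xist libraries gave 0.041 for Upf3a, 0.13 for Smg1, 0.12 for Smg6 and 0.076 for Smg9, and the Y-linked covariate gave 0.028 for Upf3a and 0.060 for Smg9. In treated mutants against wild type, upper-quartile scaling gave -0.027 for Upf1 and -0.024 for Upf3a, leaving out the Xist libraries gave -0.014 for Upf1 and 0.015 for Smg6, and the Y-linked covariate gave -0.038 for Upf1.

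With 1 library left out, the differences between saline mutants and wild type ranged from -0.12 to 0.048 for Upf1, -0.00074 to 0.31 for Upf3a, -0.095 to 0.22 for Upf3b, -0.075 to 0.15 for Smg6, and -0.079 to 0.15 for Smg9. In treated against saline mutants they ranged from -0.25 to 0.054 for Upf3a, -0.30 to 0.042 for Smg1, -0.22 to 0.090 for Smg6, and -0.15 to 0.079 for Smg9. In treated mutants against wild type they ranged from -0.046 to 0.12 for Upf1 and -0.15 to 0.16 for Smg6. Depth is unknown, so counting error could not be given, and for factors at values near 10 the rounding to whole numbers limits what can be seen.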
